A study of Mus musculus with 31 samples.

Results

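Skeletal muscle of mice with a mutant ERRα (ERRα3SA) was compared with muscle of WT littermates. The comparison was chosen by the sample labels and holds 8 of the 31 libraries of the series, 4 of each genotype. The study changed 3 serines of ERRα to alanine with CRISPR/Cas9 in C57BL/6N mice, and matings of heterozygotes gave homozygous ERRα3SA and homozygous WT littermates. Because the change sits in the germline, all cell types of the muscle carry it. By default the study used males matched for age, between 2 and 3 months old and on a normal diet, and gastrocnemius and soleus were snap-frozen. The labels say muscle and do not say which of the 2 muscles a library holds. The series also has livers of both genotypes, and values of liver are given for some genes.

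ERRα, encoded by Esrra, is an orphan nuclear receptor that binds DNA at sites with the core AAGGTCA and works through the coactivators PGC-1α and PGC-1β. In skeletal muscle, ERRα and its relative ERRγ are known to drive genes of oxidative phosphorylation, of the TCA cycle and of fatty acid oxidation. Whole muscle also contains nerve branches wrapped by Schwann cells, together with fat, vessels, connective tissue and immune cells, so its RNA is a mixture.

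The promoters of 6 of the genes described below are printed from RefSeq (GRCm38.p6) as the 250 bases before the transcription start, 5′ to 3′ on the strand of the gene. Capitals mark AAGGTCA or its reverse complement. Esrra (chr19:6921809-6922058, minus strand) is shown because it encodes the receptor, and it holds no match in this window. The other 5 were picked because they hold the letters. Perm1 (chr4:156215677-156215926, plus strand), which encodes a muscle partner of PGC-1α and ERRs, has the letters 202 bases before the start. Another 3 encode a subunit of the ATP synthase (Atp5g3, chr2:73911327-73911576, minus strand, 52 bases before the start), a mitochondrial carrier (Slc25a34, chr4:141623835-141624084, minus strand, 119 bases) and a mitochondrial chaperonin (Hspe1, chr1:55087898-55088147, plus strand, 48 bases). Tpm3 (chr3:90072401-90072650, plus strand, 228 bases before 1 of the 2 starts in the table) encodes a slow tropomyosin and is the 1 of the 6 that fell.

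Esrra: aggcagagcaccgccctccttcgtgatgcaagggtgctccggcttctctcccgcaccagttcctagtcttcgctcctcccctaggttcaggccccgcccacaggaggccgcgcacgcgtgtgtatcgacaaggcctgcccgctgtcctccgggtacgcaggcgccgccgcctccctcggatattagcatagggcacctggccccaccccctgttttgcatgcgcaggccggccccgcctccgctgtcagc

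Perm1: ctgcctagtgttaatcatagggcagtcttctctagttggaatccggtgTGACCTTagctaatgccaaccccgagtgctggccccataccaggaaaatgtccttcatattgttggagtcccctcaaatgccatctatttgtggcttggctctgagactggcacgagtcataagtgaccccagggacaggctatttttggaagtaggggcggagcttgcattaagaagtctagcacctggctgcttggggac

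Atp5g3: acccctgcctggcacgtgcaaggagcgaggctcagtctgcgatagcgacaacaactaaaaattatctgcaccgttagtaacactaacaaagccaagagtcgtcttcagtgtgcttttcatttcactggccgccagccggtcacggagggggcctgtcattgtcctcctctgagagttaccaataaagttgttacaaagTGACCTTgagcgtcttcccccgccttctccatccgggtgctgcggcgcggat

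Slc25a34: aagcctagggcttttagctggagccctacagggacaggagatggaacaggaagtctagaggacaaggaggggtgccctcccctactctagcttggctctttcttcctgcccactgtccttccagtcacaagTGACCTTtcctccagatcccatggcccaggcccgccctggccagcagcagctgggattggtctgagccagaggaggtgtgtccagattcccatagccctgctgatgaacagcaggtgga

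Hspe1: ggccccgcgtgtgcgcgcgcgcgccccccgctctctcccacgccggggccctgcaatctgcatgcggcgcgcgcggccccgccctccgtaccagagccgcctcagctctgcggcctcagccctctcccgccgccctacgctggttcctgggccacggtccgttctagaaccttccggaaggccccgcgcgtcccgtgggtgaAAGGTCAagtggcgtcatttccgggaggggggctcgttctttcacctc

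Tpm3: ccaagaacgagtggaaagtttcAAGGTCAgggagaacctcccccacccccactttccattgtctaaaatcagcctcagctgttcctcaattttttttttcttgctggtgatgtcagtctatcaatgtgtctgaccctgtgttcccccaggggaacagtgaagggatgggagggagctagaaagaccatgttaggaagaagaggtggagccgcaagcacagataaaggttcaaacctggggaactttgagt

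Of 32851 promoters in the mouse table, 1340 (4.08%) hold the letters on either strand. Some genes have more than 1 promoter, and 1271 of 27025 genes (4.70%) hold them before at least 1 start. All counts that follow are of genes. Among the 197 genes picked by the naming rule, 146 have a promoter in the table and 7 of these (4.79%) hold the letters. By list, they are held by 6 of 67 genes of the 5 OXPHOS complexes (8.96%), 3 of 69 of the mitochondrial ribosome (4.35%), 5 of 63 of the cytosolic ribosome (7.94%) and 3 of 24 of mitochondrial import (12.5%). Fatty acid uptake and oxidation has 2 of 28 (7.14%), the ERR and PGC-1 family 1 of 14 (7.14%) and slow fibre genes 2 of 15 (13.3%), with 0 of 17 of the TCA cycle, 0 of 13 of the pyruvate dehydrogenase list and 0 of 4 of Schwann cell markers. These shares were not tested, and binding of ERRα was not measured in these libraries.

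Marker genes were checked against the tissue label. All 9 muscle fibre markers were tested, led by Acta1 (skeletal α-actin) at 19329 CPM per kb in WT muscle, and 2 of 8 hepatocyte markers passed the filter. ERRα3SA 1 and ERRα3SA 4 stood apart from the other 6 libraries, so results are given with and without ERRα3SA 1. Counts over pathway lists are also given without both, and calls of genes that change without ERRα3SA 4 are named. ERRα3SA 1 had 19.3% of its counts on genes of the mitochondrial genome, against 10.04 to 10.8% in WT 1 to 4 and 9.15 to 9.85% in ERRα3SA 2 to 4. It also had 0.653% on mitochondrial rRNA (0.159 to 0.206% elsewhere), 43.6% on its 20 most counted genes (27.2 to 33.1% elsewhere) and 16984 genes with a count (19794 to 20878 elsewhere). From the tenth of genes with the lowest GC content to the tenth with the highest, its median log2 CPM relative to WT went from 0.42 to -0.97, while that of ERRα3SA 2 to 4 went from -0.16, -0.16 and -0.22 up to 0.20, 0.20 and 0.19. ERRα3SA 4 carried macrophage, neutrophil, heat shock and matrix RNA at levels that the other 7 did not reach, given with the marker genes below. Chi-square per degree of freedom was 6.30 between ERRα3SA 2 and 3 and 7.62 to 12.3 between WT muscles, but 64.5 and 65.2 for pairs with ERRα3SA 4 and 235 to 283 for pairs with ERRα3SA 1.

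**Figure D1:**
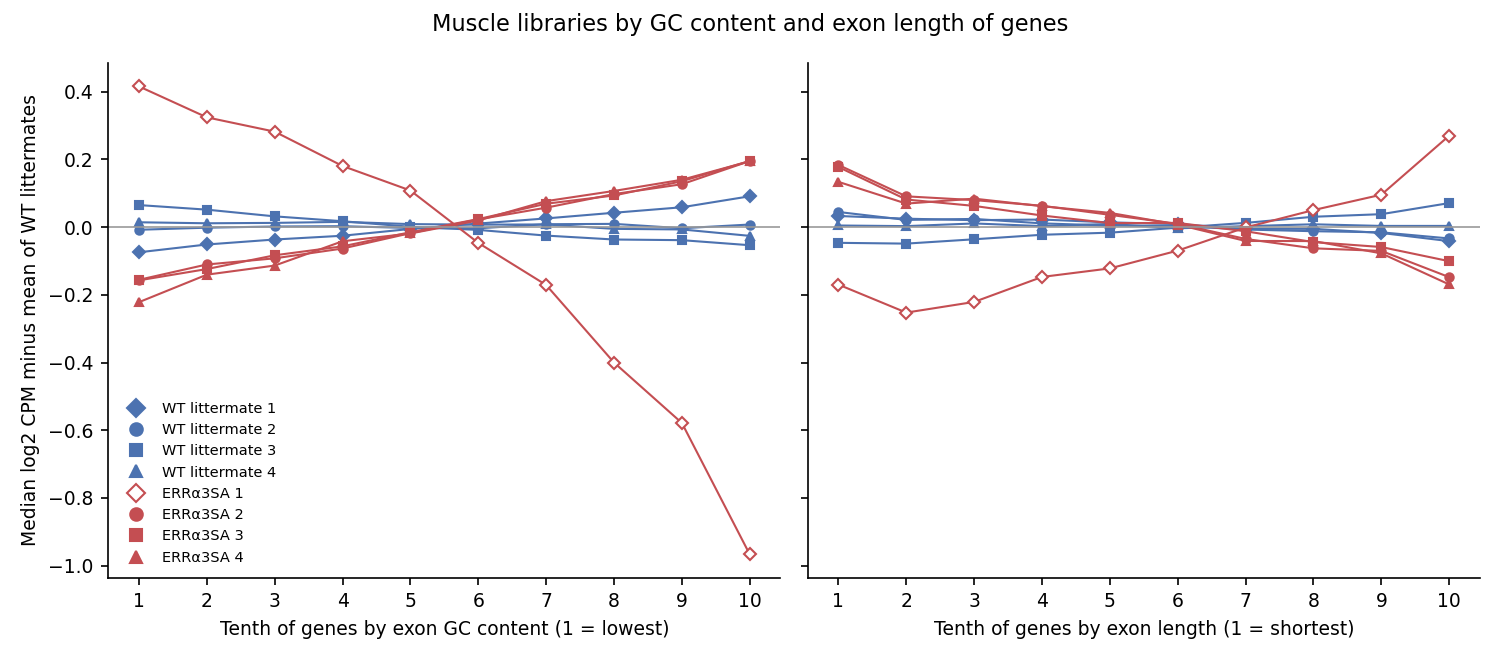
Median log2 CPM of genes binned by exon GC content (left) and exon length (right), relative to the mean of the WT muscles. ERRα3SA 1, with open symbols, runs opposite to ERRα3SA 2 to 4.

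Below, DEGs are genes with unadjusted p under 0.05 and a fold of at least 1.2. Among 14081 genes tested with all 8 libraries, 392 DEGs were higher in ERRα3SA muscle (2.78% of genes tested) and 247 lower (1.75%). At adjusted p under 0.05, edgeR's quasi-likelihood test called 0 genes (smallest adjusted p = 0.120, with 672 genes at unadjusted p under 0.05), DESeq2 56, limma voom with quality weights 1820, and edgeR with the livers in the fit 2. With upper-quartile scaling there were 324 higher and 307 lower DEGs (51.35% higher) where TMM gave 61.35% higher. The 639 DEGs became 378 without WT 3, 397 without WT 4 and 2506 without ERRα3SA 1.

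Without ERRα3SA 1 (7-library fit), 14363 genes were tested, and 1486 DEGs were higher (10.3%) and 1020 lower (7.10%), so that 59.3% were higher. Upper-quartile scaling gave 1334 and 1205 (52.5% higher) and RLE scaling 1432 and 1094 (56.7%). Of 464 genes at adjusted p under 0.05, 340 were higher (2.37%) and 124 lower (0.863%), a split that was 714 and 572 with DESeq2, 1273 and 885 with voom, and 289 and 280 with the livers in the fit. The 464 became 72, 116 and 1505 without ERRα3SA 2, 3 or 4, and 247, 77, 75 and 71 without WT 1, 2, 3 or 4. Of the 639 DEGs of the 8-library fit, 524 were DEGs with the same direction in the 7-library fit (82.0%).

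GC content and length of exons moved with the 7-library calls. DEGs that were higher had a median GC content of 54.5% and a median length of 2810 bases, lower DEGs 43.9% and 6046 bases, and all genes tested 49.7% and 4294 bases. With a correction of each library for GC content and length, 924 DEGs were higher (6.43%) and 710 lower (4.94%). Of the 2506 DEGs of the 7-library fit, 1239 stayed DEGs in the same direction (49.4%). At adjusted p under 0.05 there were 163 genes, and 136 of them were among the 464, so that 29.3% of the 464 were kept. Whether library chemistry or the mice gave this slope was not tested. Without ERRα3SA 1 and 4 (6-library fit), 1477 DEGs were higher (10.1%) and 1120 lower (7.68%). There 1505 genes passed adjusted p under 0.05, and all 464 of the 7-library fit were among them with the same direction. Of the 2506 DEGs of the 7-library fit, 1705 were DEGs in the 6-library fit in the same direction (68.0%). In what follows, rose and fell refer to DEGs of the 7-library fit, values in a row follow the replicate numbers, and ± gives the SE of a log2 fold change. The median log2 fold change over all genes tested was 0.02 in the 8- and 7-library fits and 0.01 with the correction. Short genes stood higher: in the tenth of genes with the shortest exons, median log2 CPM relative to WT was 0.18, 0.18 and 0.13 in ERRα3SA 2 to 4.

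Esrra, the gene of the mutated receptor, stood at 94.2, 86.1, 69.7 and 81.6 CPM in WT and 25.8, 139.6, 134.0 and 102.6 CPM in ERRα3SA muscles. ERRα3SA 2 to 4 lay above the 4 WT muscles and ERRα3SA 1 below them. The rise was 0.60 ± 0.12 (SE, adjusted p = 0.0373) on the log2 scale without ERRα3SA 1, 0.57 (adjusted p = 0.0755) with the GC and length correction, and the log2 fold change was 0.28 (adjusted p = 1.00, no DEG) with all 8 libraries. In liver its log2 fold change was -0.24 (adjusted p = 0.713, no DEG). Esrrg, which encodes the ERRγ of oxidative muscle, was at 40.2, 38.4, 48.1 and 49.98 CPM in WT and 56.5, 32.6, 33.2 and 28.5 CPM in ERRα3SA muscles, and ERRα3SA 2 to 4 lay below all WT muscles with ERRα3SA 1 above them. It fell by 0.48 ± 0.11 (adjusted p = 0.0459) and had a log2 fold change of -0.23 (adjusted p = 1.00, no DEG) with all 8 libraries.

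The partners of ERRα moved less evenly. Ppargc1a (PGC-1α) stood at 39.5, 56.5, 48.2 and 43.5 CPM in WT and 63.5, 34.7, 44.6 and 30.2 CPM in ERRα3SA muscles, with overlapping groups. It fell by 0.36 ± 0.15 (adjusted p = 0.196), but had -0.21 (adjusted p = 0.492, no DEG) with the correction and -0.12 (adjusted p = 1.00, no DEG) with all 8 libraries. In the 7-library fit it was no DEG without ERRα3SA 2, ERRα3SA 4, WT 2, WT 3 or WT 4 (log2 fold change -0.39 to -0.24), and in the 8-library fit reversed without ERRα3SA 4 (log2 fold change 0.02). Perm1, the most abundant gene of this family per length, overlapped at 255.8, 272.3, 247.0 and 282.8 CPM in WT and 186.4, 280.9, 323.5 and 257.5 CPM in ERRα3SA muscles (log2 fold change 0.13 ± 0.09 (SE, adjusted p = 0.401), with -0.01 (adjusted p = 1.00, no DEG) in all 8 libraries). Gsk3a, which encodes a kinase of the GSK3 family, was at 51.2, 51.8, 51.7 and 52.3 CPM in WT and 38.7, 61.9, 70.5 and 60.8 CPM in ERRα3SA muscles. It rose by 0.32 ± 0.07 (SE, adjusted p = 0.0382), but was no DEG without ERRα3SA 3 (log2 fold change 0.25). The correction left 0.11 (adjusted p = 0.4902, no DEG), and all 8 libraries gave 0.16 (adjusted p = 1.00, no DEG). Ppara (PPARα, a receptor for fatty acids) rose by 0.41 ± 0.16 (SE, adjusted p = 0.1701) from 9.21, 11.3, 11.1 and 9.39 CPM in WT to 13.02, 12.5, 17.3 and 10.9 CPM in ERRα3SA muscles, with overlap. The correction left 0.34 (adjusted p = 0.337, no DEG), and in the 7-library fit Ppara was no DEG without ERRα3SA 3, WT 1 or WT 4 (log2 fold change 0.20 to 0.37). All 8 libraries gave 0.39 (adjusted p = 1.00, a DEG), but it was no DEG without ERRα3SA 2, ERRα3SA 3, WT 1, WT 3 or WT 4 (log2 fold change 0.25 to 0.43). Of 16 genes of the ERR and PGC-1 family, 3 rose and 2 fell, a split of 3 and 3 under the RLE and upper-quartile scalings, 2 and 1 with the correction, 2 and 0 with all 8 libraries, and 3 and 1 in the 6-library fit.

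**Figure D2:**
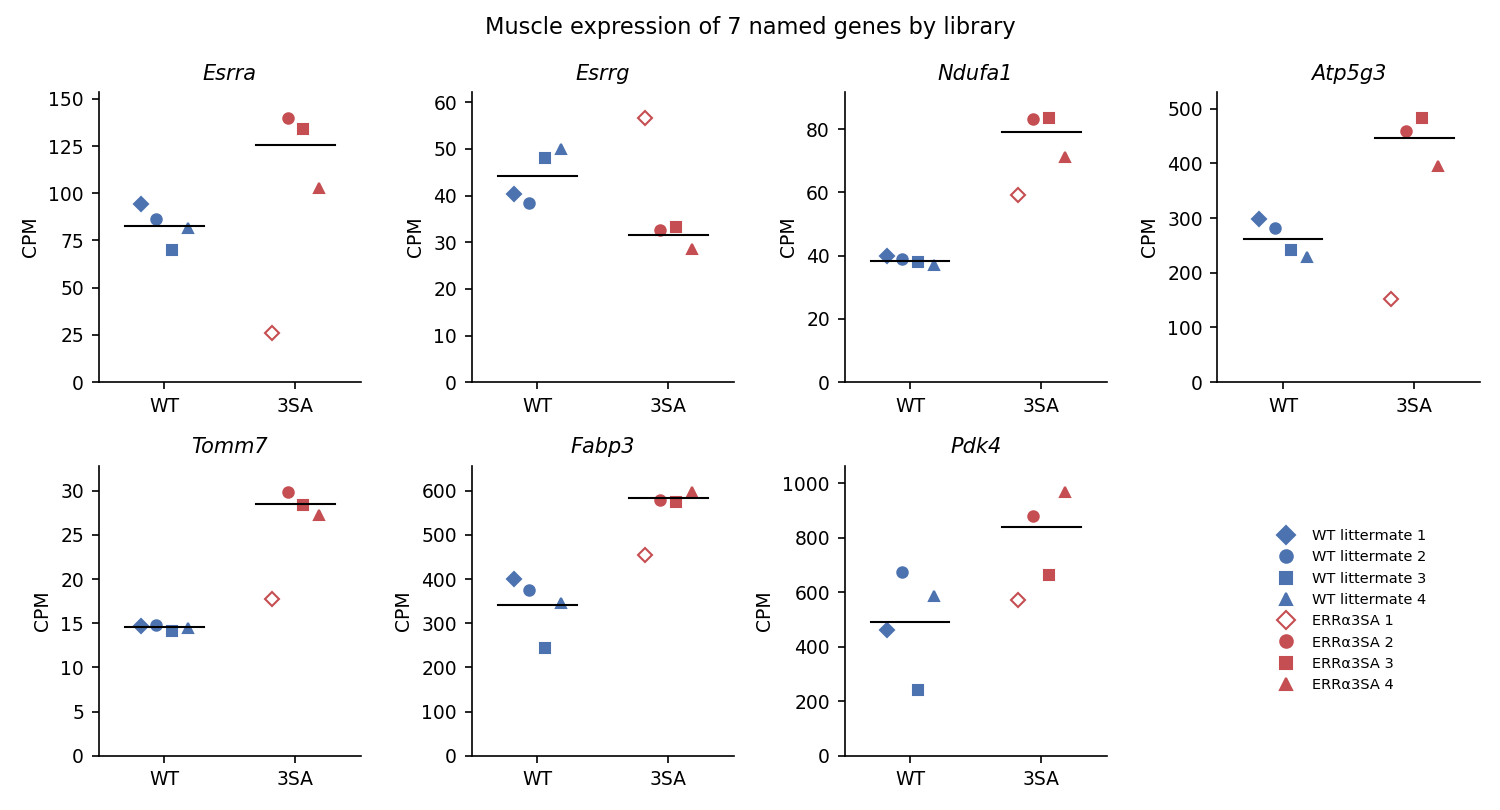
CPM of 7 genes in each muscle library. Bars mark the mean of WT 1 to 4 and of ERRα3SA 2 to 4, and the open symbol is ERRα3SA 1.

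Complex I passes electrons from NADH into the respiratory chain, and 19 of its 37 subunit genes rose while 0 fell (median log2 fold change 0.30). With the correction 17 rose and 1 fell (median 0.22), with all 8 libraries 13 and 0, and in the 6-library fit 23 and 0. Ndufa1, an accessory subunit needed for assembly, stood at 39.8, 38.9, 38.1 and 37.03 CPM in WT and 59.2, 83.1, 83.4 and 71.01 CPM in ERRα3SA muscles. Other accessory subunits were at 53.1, 46.2, 45.04 and 47.9 CPM in WT and 74.8, 92.8, 96.2 and 78.5 CPM in ERRα3SA muscles (Ndufb3) and 61.3, 70.5, 61.9 and 71.2 CPM in WT and 124.4, 122.7, 122.3 and 99.5 CPM in ERRα3SA muscles (Ndufs6). In these 3 genes all ERRα3SA muscles, replicate 1 included, lay above all WT muscles. Their rises were 1.05 ± 0.07, 0.90 ± 0.09 and 0.80 ± 0.09 (SE, adjusted p = 0.00148, 0.00248 and 0.00465), 0.84, 0.79 and 0.65 (adjusted p = 0.00217, 0.00692 and 0.009704) with the correction, and 0.95, 0.83 and 0.82 (adjusted p = 0.1198, 0.1198 and 0.1198, each a DEG) with all 8 libraries.

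Ndufa2 and Ndufa3, subunits of the NADH side and the membrane arm, stood at 60.2, 58.8, 49.7 and 49.2 CPM in WT and 53.8, 128.2, 132.0 and 107.0 CPM in ERRα3SA muscles, and at 60.9, 60.4, 49.8 and 60.7 CPM in WT and 36.9, 121.6, 112.6 and 101.8 CPM in ERRα3SA muscles. ERRα3SA 1 lay among or below the WT muscles and the other 3 above them. They rose by 1.17 ± 0.10 and 0.96 ± 0.09 (SE, adjusted p = 0.00238 and 0.00238), against 0.95 and 0.69 (adjusted p = 0.725 and 1.00, DEG Ndufa2) with all 8 libraries.

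Complex II is shared with the TCA cycle, and 2 of its 4 genes rose, with 1 after the correction, 0 with all 8 libraries and 4 in the 6-library fit. Sdhd, a membrane anchor, was at 194.3, 190.7, 159.0 and 163.9 CPM in WT and 109.3, 241.6, 266.9 and 214.6 CPM in ERRα3SA muscles. It rose by 0.45 ± 0.10 (SE, adjusted p = 0.0435), with ERRα3SA 1 below every WT muscle and 0.23 (adjusted p = 1.00, no DEG) in all 8 libraries. Sdhb, the iron-sulfur subunit, was at 338.4, 357.1, 312.6 and 336.4 CPM in WT and 324.1, 426.1, 455.9 and 350.0 CPM in ERRα3SA muscles. It rose by 0.30 ± 0.09 (SE, adjusted p = 0.104), but had 0.18 (adjusted p = 0.345, no DEG) with the correction and was no DEG without ERRα3SA 3 or WT 3 (log2 fold change 0.22 to 0.26). Sdhb had 0.21 (adjusted p = 1.00, no DEG) with all 8 libraries. Sdha, the most abundant, was at 874.1, 934.3, 892.8 and 946.1 CPM in WT and 1277, 1057, 1152 and 833.0 CPM in ERRα3SA muscles, with a log2 fold change of 0.16 ± 0.10 (SE, adjusted p = 0.376) and, with all 8 libraries, 0.24 (adjusted p = 1.00, no DEG). It was a DEG without ERRα3SA 4 (log2 fold change 0.28) in the 7-library fit and a DEG without ERRα3SA 4 (log2 fold change 0.35) in the 8-library fit. Without ERRα3SA 3, Sdha had 0.06 in the 7-library fit and 0.22 in the 8-library fit. Over the 20 genes of the TCA cycle, 2 rose and 0 fell (median 0.12). The correction gave the same counts and a median of 0.12, while with all 8 libraries edgeR gave 0 DEGs. Without ERRα3SA 1 and 4, 7 rose and 0 fell (median 0.23).

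Complexes III and IV hand electrons to oxygen, and 5 of 9 and 10 of 16 subunit genes rose, with 0 falls. With the correction 4 and 4 rose and 1 of complex IV fell, and the medians went from 0.31 and 0.33 to 0.17 and 0.16. With all 8 libraries 1 and 4 rose, and in the 6-library fit 5 and 12, without falls. Uqcrh, the hinge subunit beside cytochrome c, was at 184.3, 192.3, 161.9 and 174.5 CPM in WT and 217.9, 239.3, 246.6 and 230.2 CPM in ERRα3SA muscles, with no overlap. Cox5b, a subunit on the matrix side, was at 205.7, 212.7, 192.8 and 236.2 CPM in WT and 274.6, 314.0, 315.7 and 272.7 CPM in ERRα3SA muscles, and Ndufa4, now counted to complex IV, at 290.4, 293.1, 268.5 and 282.8 CPM in WT and 319.2, 408.1, 395.2 and 346.7 CPM in ERRα3SA muscles, again without overlap. These 3 rose by 0.43 ± 0.07, 0.51 ± 0.08 and 0.44 ± 0.07 (SE, adjusted p = 0.0216, 0.0184 and 0.0187). With all 8 libraries they rose by 0.39, 0.47 and 0.37 (adjusted p = 0.729, 0.683 and 0.903, each a DEG).

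Other small subunits split ERRα3SA 1 from the rest. Uqcr11 stood at 96.8, 96.1, 78.8 and 93.3 CPM in WT and 29.7, 191.4, 187.1 and 156.2 CPM in ERRα3SA muscles, Uqcrq at 216.8, 229.6, 190.9 and 213.9 CPM in WT and 163.8, 348.6, 353.9 and 309.0 CPM in ERRα3SA muscles, and Cox8a at 19.4, 17.9, 17.1 and 18.1 CPM in WT and 8.06, 29.7, 27.99 and 31.1 CPM in ERRα3SA muscles. In all 3, ERRα3SA 2 to 4 lay above every WT muscle and ERRα3SA 1 below. Their rises were 0.97 ± 0.09, 0.67 ± 0.08 and 0.72 ± 0.08 (SE, adjusted p = 0.00264, 0.00502 and 0.004397) without ERRα3SA 1, against log2 fold changes of 0.63, 0.47 and 0.42 (adjusted p = 1.00, 1.00 and 1.00, no DEGs) with it. The correction left 0.60, 0.61 and 0.35 (adjusted p = 0.0113, 0.007502 and 0.0727).

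ATP synthase makes ATP from the proton gradient, and 7 of its 18 genes rose while 1 fell. These were 7 and 1 with the correction, 2 and 0 with all 8 libraries, and 8 and 1 in the 6-library fit. Atp5k, subunit e of the membrane part, was at 43.2, 32.4, 18.99 and 33.9 CPM in WT and 16.5, 110.7, 103.2 and 100.9 CPM in ERRα3SA muscles. Atp5g1 and Atp5g3, which encode the same mature protein of the c-ring, were at 315.5, 356.4, 317.5 and 326.1 CPM in WT and 148.0, 501.8, 529.5 and 479.7 CPM in ERRα3SA muscles, and at 297.8, 282.4, 242.0 and 228.5 CPM in WT and 151.9, 458.8, 482.4 and 396.0 CPM in ERRα3SA muscles. ERRα3SA 1 was the lowest library and ERRα3SA 2 to 4 the highest in these 3 genes. They rose by 1.72 ± 0.21, 0.62 ± 0.07 and 0.77 ± 0.11 (SE, adjusted p = 0.00655, 0.004397 and 0.0106), against 1.37, 0.34 and 0.50 (adjusted p = 1.00, 1.00 and 1.00, DEG Atp5k) with all 8 libraries. In the 8-library fit Atp5k was no DEG without ERRα3SA 2, ERRα3SA 4 or WT 3 (log2 fold change 1.19 to 1.26). Atp5a1, the α subunit and the most abundant per length, overlapped at 1979, 2179, 1909 and 2017 CPM in WT and 1943, 2465, 2725 and 2020.2 CPM in ERRα3SA muscles (log2 fold change 0.26 ± 0.10 (SE, adjusted p = 0.1802)). It was a DEG without ERRα3SA 4 or WT 2 (log2 fold change 0.29 to 0.36), and all 8 libraries gave 0.18 (adjusted p = 1.00, no DEG). The correction left Atp5a1 at 0.12. Without ERRα3SA 3 it had 0.16 in the 7-library fit and 0.09 in the 8-library fit.

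**Figure D3:**
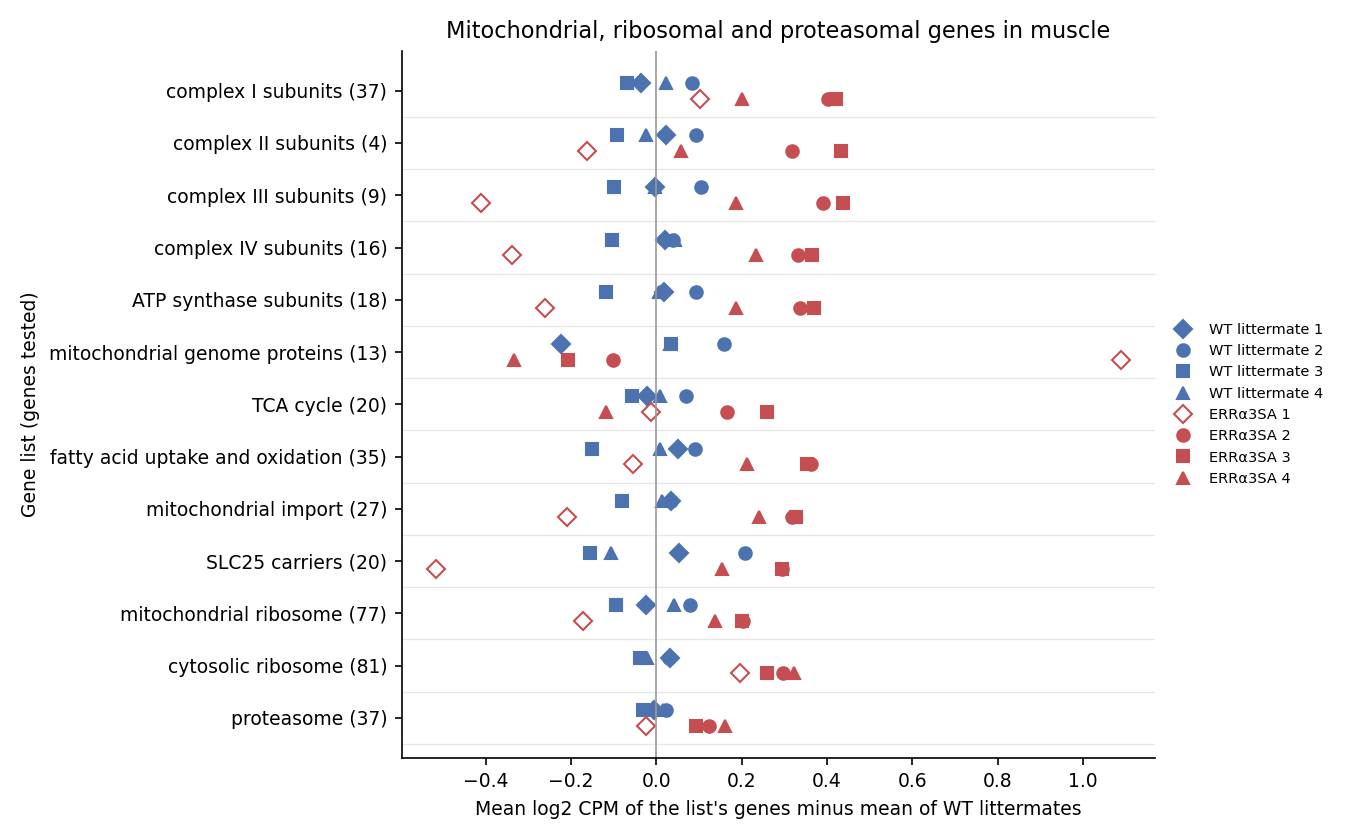
Mean log2 CPM of gene lists in each library, relative to the mean of the WT muscles. The number of genes tested stands behind each list.

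The mitochondrial genome encodes 13 subunits of the same complexes, and the direction of its genes turned on ERRα3SA 1. Their share of all counts was 1.38 percentage points higher in ERRα3SA muscle (exact 2-sided permutation p = 1.00) and 1.08 points lower without ERRα3SA 1. A high share was 1 reason for setting this library aside, so a test of the share without it cannot decide whether the genotypes differ. Without ERRα3SA 1, 1 of the 13 rose and 2 fell (median -0.19), in the 6-library fit 1 and 1, and with all 8 libraries 1 rose and 0 fell (median 0.31). A difference from the nuclear genes of these complexes was not tested. mt-Co1, the most abundant, was at 36248, 39362, 39368 and 39754 CPM in WT and 119094, 33930.2, 34803 and 29782 CPM in ERRα3SA muscles, a log2 fold change of -0.23 ± 0.10 (SE, adjusted p = 0.217) in the 7-library fit and 0.49 (adjusted p = 1.00, no DEG) in the 8-library fit. mt-Atp8, a short ATP synthase subunit whose exon shares 21.1% of its bases with mt-Atp6, was at 7.41, 9.22, 10.4 and 9.59 CPM in WT and 25.9, 2.95, 3.55 and 3.95 CPM in ERRα3SA muscles. It fell by 1.38 ± 0.16 (adjusted p = 0.00483), with ERRα3SA 2 to 4 below and ERRα3SA 1 above all WT muscles, and had -0.04 (adjusted p = 1.00, no DEG) with all 8.

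mt-Nd6, a complex I gene and the one protein gene on the other strand, was at 2698, 3191, 3519 and 3417 CPM in WT and 3694, 2656, 2793 and 2428 CPM in ERRα3SA muscles, with overlap. It fell by 0.28 ± 0.11 (adjusted p = 0.159), but was no DEG without ERRα3SA 2, ERRα3SA 4, WT 2, WT 3 or WT 4 (log2 fold change -0.29 to -0.23), and all 8 libraries gave -0.15 (adjusted p = 1.00, no DEG). mt-Nd3, also of complex I, was at 11.1, 13.5, 12.4 and 15.1 CPM in WT and 32.3, 16.1, 15.5 and 15.6 CPM in ERRα3SA muscles, without overlap, and rose by 0.28 ± 0.11 (SE, adjusted p = 0.168). It was no DEG without ERRα3SA 2, ERRα3SA 3, WT 1 or WT 3 (log2 fold change 0.22 to 0.30). With all 8 libraries mt-Nd3 had 0.61 (adjusted p = 1.00, a DEG), but it was no DEG without WT 1, WT 2 or WT 3 (log2 fold change 0.54 to 0.63).

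Most mitochondrial proteins are imported from the cytosol, and 12 of 27 import genes rose while 0 fell, with 8 and 1 after the correction, 4 and 0 with all 8 libraries, and 14 and 0 in the 6-library fit. Tomm7, a small subunit of the pore of the outer membrane, stood at 14.7, 14.8, 14.1 and 14.5 CPM in WT and 17.8, 29.9, 28.4 and 27.2 CPM in ERRα3SA muscles, so that every ERRα3SA muscle lay above every WT muscle. Timm13, a chaperone between the membranes, was at 34.01, 31.5, 25.97 and 28.1 CPM in WT and 9.08, 56.3, 53.8 and 52.9 CPM in ERRα3SA muscles. Tomm40l, a paralog of the pore protein, was at 8.03, 8.03, 7.38 and 6.75 CPM in WT and 1.61, 14.2, 16.95 and 14.3 CPM in ERRα3SA muscles, but 64.3% of its exon bases overlap those of Nr1i3, so its count cannot be assigned with certainty. The 3 genes rose by 0.98 ± 0.07, 0.87 ± 0.09 and 1.01 ± 0.11 (SE, adjusted p = 0.00148, 0.00425 and 0.00419), with 0.83, 0.53 and 0.65 (adjusted p = 0.383, 1.00 and 1.00, DEG Tomm7) in all 8 libraries. Hspe1, the 10-kDa chaperonin that folds imported proteins and whose promoter is shown above, was at 42.7, 45.4, 40.3 and 46.9 CPM in WT and 78.6, 63.05, 58.6 and 75.6 CPM in ERRα3SA muscles, without overlap. It rose by 0.60 ± 0.10 (SE, adjusted p = 0.022) and by 0.65 (adjusted p = 0.318, a DEG) with all 8 libraries.

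A list of mitochondrial biogenesis and dynamics had 2 rises and 0 falls among 25 genes (median -0.04). The counts were 0 and 0 with the correction, 2 and 0 with all 8 libraries, and 5 and 0 in the 6-library fit. Carriers of the SLC25 family move metabolites across the inner membrane, and 4 of 20 rose while 1 fell. These were 6 and 1 with the correction, 3 and 1 with all 8 libraries, and 10 and 1 in the 6-library fit. Slc25a4, the ADP/ATP carrier and the most abundant, was at 2900.0, 3132, 2762 and 2856 CPM in WT and 3392, 4184, 4188 and 3470.4 CPM in ERRα3SA muscles, without overlap. Slc25a20, the carnitine-acylcarnitine carrier of fat oxidation, was at 74.1, 73.9, 60.8 and 70.1 CPM in WT and 82.2, 98.8, 96.5 and 76.9 CPM in ERRα3SA muscles, also without overlap. Slc25a34, with AAGGTCA in its promoter, was at 7.67, 9.06, 5.13 and 6.59 CPM in WT and 3.82, 21.2, 12.7 and 17.8 CPM in ERRα3SA muscles, and ERRα3SA 1 lay below the WT muscles. They rose by 0.45 ± 0.09, 0.39 ± 0.10 and 1.29 ± 0.21 (SE, adjusted p = 0.0374, 0.0704 and 0.02003). The 8-library fit gave 0.39, 0.35 and 0.97 (adjusted p = 1.00, 1.00 and 1.00, each a DEG). In the 8-library fit Slc25a20 was no DEG without ERRα3SA 2, ERRα3SA 3 or WT 3 (log2 fold change 0.29 to 0.31), and Slc25a34 was no DEG without ERRα3SA 2, ERRα3SA 3, ERRα3SA 4, WT 1, WT 2, WT 3 or WT 4 (log2 fold change 0.70 to 1.11). Slc25a1, the citrate carrier, was at 8.69, 6.67, 9.16 and 7.43 CPM in WT and 4.42, 5.04, 6.77 and 5.897 CPM in ERRα3SA muscles. It fell by 0.43 ± 0.15 (adjusted p = 0.141). It was no DEG without ERRα3SA 2, WT 1 or WT 3 (log2 fold change -0.38 to -0.33). With 8 libraries Slc25a1 had -0.53 (adjusted p = 1.00, a DEG), but it was no DEG without WT 3 (log2 fold change -0.45).

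Mitochondrial ribosomes translate the 13 subunits named above, and 26 of their 77 genes rose while 1 fell (median 0.19). The correction gave 18 and 0 (median 0.10), all 8 libraries 7 and 0, the 6-library fit 27 and 1, and upper-quartile scaling 26 and 3. Mrpl51, of the large subunit, was at 85.7, 91.1, 79.6 and 89.9 CPM in WT and 135.2, 121.5, 123.7 and 125.2 CPM in ERRα3SA muscles, without overlap. Mrpl12, the L7/L12 stalk protein, was at 33.1, 33.3, 27.6 and 33.1 CPM in WT and 24.8, 56.7, 59.6 and 58.5 CPM in ERRα3SA muscles, and Mrpl14 at 32.4, 28.3, 22.4 and 27.5 CPM in WT and 29.1, 57.97, 53.2 and 55.5 CPM in ERRα3SA muscles. They rose by 0.52 ± 0.07, 0.88 ± 0.08 and 1.02 ± 0.11 (SE, adjusted p = 0.00719, 0.00238 and 0.00425) and by 0.55, 0.65 and 0.83 (adjusted p = 0.301, 1.00 and 0.725, each a DEG) with all 8 libraries. There Mrpl12 was no DEG without ERRα3SA 2, ERRα3SA 3, ERRα3SA 4 or WT 3 (log2 fold change 0.56 to 0.60). Mrps30, the 1 gene that fell, was at 19.2, 21.3, 22.03 and 20.7 CPM in WT and 24.2, 15.98, 15.96 and 15.5 CPM in ERRα3SA muscles. It fell by 0.39 ± 0.08 (adjusted p = 0.0389), the correction left -0.22 (adjusted p = 0.173, no DEG), and all 8 libraries gave -0.22 (adjusted p = 1.00, no DEG).

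In the cytosolic ribosome, the longest of the lists, 27 of 81 genes rose and 0 fell in the 8-library fit (median 0.26). Without ERRα3SA 1, 39 rose and 0 fell (median 0.25), and after the correction 28 and 2 (median 0.17). In the 6-library fit 36 rose and 0 fell, and in liver 0 rose and 4 fell of 79. Over all 13339 genes tested in liver, 333 DEGs were higher and 318 lower. Rpl39, at the exit of the peptide tunnel, was at 27.9, 28.3, 27.7 and 26.6 CPM in WT and 58.6, 48.5, 44.1 and 48.7 CPM in ERRα3SA muscles. Rpl36 was at 59.8, 64.6, 58.9 and 60.3 CPM in WT and 91.8, 97.2, 102.1 and 96.3 CPM in ERRα3SA muscles, and Rpl11, of the 5S rRNA particle, at 82.7, 83.6, 74.2 and 75.3 CPM in WT and 160.1, 129.0, 118.6 and 126.6 CPM in ERRα3SA muscles. No ERRα3SA muscle overlapped WT in these 3 genes, and they rose by 0.78 ± 0.07, 0.70 ± 0.06 and 0.67 ± 0.07 (SE, adjusted p = 0.00238, 0.00238 and 0.00419) and by 0.85, 0.67 and 0.76 (adjusted p = 0.1198, 0.1198 and 0.188, each a DEG) with all 8 libraries. For Rpl36, of high GC content, the correction left 0.27 (adjusted p = 0.0939). Rps29, of the small subunit, was at 45.96, 39.3, 35.8 and 37.3 CPM in WT and 47.8, 84.3, 76.2 and 76.2 CPM in ERRα3SA muscles, without overlap. It rose by 1.00 ± 0.09 (SE, adjusted p = 0.00238) and by 0.85 (adjusted p = 0.477, a DEG) with all 8 libraries. Rplp0, the most abundant per length, was at 604.9, 596.4, 567.9 and 545.0 CPM in WT and 507.0, 631.3, 652.7 and 633.1 CPM in ERRα3SA muscles, a log2 fold change of 0.15 ± 0.07 (SE, adjusted p = 0.212) and, with all 8 libraries, 0.07 (adjusted p = 1.00, no DEG).

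Rpl22l1, a paralog of Rpl22, was among the largest rises, at 7.52, 7.82, 6 and 4.67 CPM in WT and 3.22, 17.1, 17.2 and 19.3 CPM in ERRα3SA muscles. ERRα3SA 1 was the lowest library and ERRα3SA 2 to 4 the highest. It rose by 1.46 ± 0.17 (SE, adjusted p = 0.00469) and by 1.13 (adjusted p = 1.00, a DEG) with all 8 libraries, where it was no DEG without ERRα3SA 2, ERRα3SA 3, ERRα3SA 4, WT 3 or WT 4 (log2 fold change 0.96 to 1.10). The proteasome degrades proteins tagged with ubiquitin, and 7 of its 37 genes rose while 0 fell (median 0.06). Upper-quartile scaling gave 6 and 2, the correction 5 and 0 (median 0.09), all 8 libraries 3 and 0, and the 6-library fit 8 and 0. Psmb7, a catalytic subunit with trypsin-like activity, was at 104.1, 101.4, 100.9 and 108.8 CPM in WT and 184.6, 147.0, 149.8 and 134.7 CPM in ERRα3SA muscles, without overlap, and Psmb5, with chymotrypsin-like activity, at 60.3, 63.2, 59.7 and 58.5 CPM in WT and 24.5, 90.4, 90.2 and 89.1 CPM in ERRα3SA muscles, with ERRα3SA 1 lowest. Their rises were 0.48 ± 0.06 and 0.58 ± 0.06 (SE, adjusted p = 0.00719 and 0.00337), against log2 fold changes of 0.57 and 0.29 (adjusted p = 0.477 and 1.00, DEG Psmb7) with all 8 libraries. The correction left Psmb5 at 0.30 (adjusted p = 0.0497).

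Uptake and oxidation of fatty acids also moved upward, with 14 of 35 genes up and 0 down (median 0.20). The counts were 13 and 0 after the correction (median 0.26), 5 and 0 with all 8 libraries, and 19 and 0 in the 6-library fit. Fabp3, the fatty acid carrier of muscle cytosol and the most abundant of the list per length, stood at 399.6, 375.2, 243.0 and 345.4 CPM in WT and 453.5, 580.0, 574.7 and 597.5 CPM in ERRα3SA muscles, and every ERRα3SA muscle lay above every WT muscle. It rose by 0.79 ± 0.15 (SE, adjusted p = 0.0291) and by 0.69 (adjusted p = 0.725, a DEG) with all 8 libraries. Acadvl, the dehydrogenase of long-chain acyl-CoA, was at 148.6, 151.8, 129.9 and 141.3 CPM in WT and 53.1, 215.4, 229.8 and 191.0 CPM in ERRα3SA muscles, with ERRα3SA 1 lowest, and rose by 0.58 ± 0.08 (SE, adjusted p = 0.0106), against 0.27 (adjusted p = 1.00, no DEG) with all 8 libraries. Etfb, which takes electrons from such dehydrogenases, was at 9.46, 7.66, 5.45 and 9.51 CPM in WT and 13.1, 20.01, 21.3 and 17.7 CPM in ERRα3SA muscles. It rose by 1.30 ± 0.17 (SE, adjusted p = 0.00887) and by 1.17 (adjusted p = 0.305, a DEG) with all 8 libraries, but 58.2% of its exon bases overlap another gene. Lpl, the lipase that frees fatty acids from lipoproteins, was at 781.0, 844.0, 797.1 and 861.7 CPM in WT and 2363, 901.4, 901.5 and 830.4 CPM in ERRα3SA muscles, where ERRα3SA 1 stood far above the rest. Its log2 fold change was 0.10 ± 0.07 (SE, adjusted p = 0.391), and all 8 libraries gave 0.61 (adjusted p = 1.00, no DEG). In that fit Lpl was a DEG without ERRα3SA 4 (log2 fold change 0.76).

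Pyruvate enters the mitochondrion through a carrier and is burned under the control of kinases. Pdk4, the kinase that turns pyruvate dehydrogenase off, was at 463.3, 673.8, 240.3 and 588.0 CPM in WT and 570.4, 881.1, 664.1 and 968.8 CPM in ERRα3SA muscles, with overlap. It rose by 0.78 ± 0.29 (SE, adjusted p = 0.161), and had 0.65 (adjusted p = 1.00, no DEG) with all 8 libraries. It was no DEG without ERRα3SA 2 or WT 1 (log2 fold change 0.74 to 0.76) in the 7-library fit and a DEG without WT 2 (log2 fold change 0.85) in the 8-library fit. Without WT 3, the 8-library fit gave 0.43 for Pdk4. Mpc2, a subunit of the pyruvate carrier, was at 168.4, 171.2, 147.4 and 155.4 CPM in WT and 153.4, 211.6, 210.4 and 173.5 CPM in ERRα3SA muscles. It rose by 0.31 ± 0.09 (SE, adjusted p = 0.0803), with ERRα3SA 1 among the WT muscles and 0.22 (adjusted p = 1.00, no DEG) in all 8 libraries. These were the 2 of 14 genes of the pyruvate dehydrogenase list that rose, and 0 fell. The 8-library fit gave 0 rises and 0 falls, and the 6-library fit 3 and 0.

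Glycolysis had 6 of 24 genes up and 0 down, 3 and 0 after the correction, 1 and 0 with all 8 libraries, and 5 and 0 in the 6-library fit. Pfkfb2, which sets the activator of phosphofructokinase, was at 5.72, 5.93, 7.07 and 6.95 CPM in WT and 3.46, 8.997, 10.5 and 9.297 CPM in ERRα3SA muscles, Pgk1 at 697.1, 776.4, 715.8 and 720.3 CPM in WT and 592.0, 907.2, 869.0 and 1039 CPM in ERRα3SA muscles, and Eno3, the muscle enolase, at 4290.1, 4407, 4323 and 4462 CPM in WT and 3965, 5416, 5369 and 5234 CPM in ERRα3SA muscles. ERRα3SA 1 was the lowest library in all 3 and ERRα3SA 2 to 4 lay above WT. They rose by 0.59 ± 0.12, 0.38 ± 0.09 and 0.30 ± 0.07 (SE, adjusted p = 0.0372, 0.0507 and 0.0586), and with all 8 libraries had 0.34, 0.23 and 0.19 (adjusted p = 1.00, 1.00 and 1.00, no DEGs). The correction left Eno3 at 0.15 (adjusted p = 0.343, no DEG).

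The study names 10 genes for use of glucose and fat in muscle after measuring the same mouse line, so their count is not independent evidence. Among the 10, Pdk4 and Fabp3 rose and Gab1 and Shc2 fell. Gab1, a docking protein of insulin and growth factor signalling, was at 21.8, 25.3, 27.2 and 23.3 CPM in WT and 23.8, 19.8, 21.8 and 16.2 CPM in ERRα3SA muscles, with overlap, and fell by 0.33 ± 0.12 (adjusted p = 0.137), but was no DEG without ERRα3SA 4 or WT 3 (log2 fold change -0.27 to -0.22). Gab1 had -0.26 (adjusted p = 1.00, no DEG) with all 8 libraries. Shc2, an adaptor of receptor kinases, was at 11.8, 12.6, 10.97 and 10.1 CPM in WT and 3.105, 10, 9.02 and 4.82 CPM in ERRα3SA muscles, without overlap. It fell by 0.51 ± 0.22 (adjusted p = 0.194), but was no DEG without ERRα3SA 4, WT 1, WT 2 or WT 3 (log2 fold change -0.53 to -0.26). In the 8-library fit Shc2 had -0.75 (adjusted p = 1.00, a DEG), but was no DEG without ERRα3SA 4, WT 1, WT 2, WT 3 or WT 4 (log2 fold change -0.80 to -0.61). Irs2, the insulin receptor substrate, overlapped at 47.2, 55.3, 38.7 and 30.7 CPM in WT and 33.02, 33.4, 36.7 and 29 CPM in ERRα3SA muscles. It had a log2 fold change of -0.37 ± 0.18 (SE, adjusted p = 0.247), with -0.47 (adjusted p = 0.235, a DEG) after the correction and -0.38 (adjusted p = 1.00, no DEG) in all 8 libraries. It was a DEG without WT 4 (log2 fold change -0.51) in the 7-library fit and a DEG without WT 4 (log2 fold change -0.51) in the 8-library fit. Without WT 2, Irs2 had -0.23 in both fits.

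Slc2a3, a glucose transporter, was at 19.3, 21.2, 23.1 and 17.2 CPM in WT and 8.896, 19.9, 16.99 and 10.1 CPM in ERRα3SA muscles, with a log2 fold change of -0.36 ± 0.20 (SE, adjusted p = 0.315) and, with all 8 libraries, -0.52 (adjusted p = 1.00, no DEG). It was a DEG without ERRα3SA 2 (log2 fold change -0.57) in the 7-library fit and a DEG without ERRα3SA 2 (log2 fold change -0.74) in the 8-library fit. Without ERRα3SA 4, Slc2a3 had only -0.12 in the 7-library fit and -0.39 in the 8-library fit. Prkag3, the AMPK subunit of fast fibres, was at 190.6, 189.4, 192.2 and 185.0 CPM in WT and 114.7, 178.1, 173.6 and 92.6 CPM in ERRα3SA muscles. Every ERRα3SA muscle lay below every WT muscle, and replicates 1 and 4 by far the most. The log2 fold change was -0.35 ± 0.19 (SE, adjusted p = 0.289), and -0.44 (adjusted p = 1.00, no DEG) with all 8 libraries. Prkag3 was a DEG without ERRα3SA 2 or ERRα3SA 3 (log2 fold change -0.50 to -0.48) in the 7-library fit and a DEG without ERRα3SA 2 or ERRα3SA 3 (log2 fold change -0.57 to -0.55) in the 8-library fit. Without ERRα3SA 4, Prkag3 had only -0.10 in the 7-library fit and -0.28 in the 8-library fit. Ugp2, which makes UDP-glucose for glycogen, was at 725.7, 729.1, 858.7 and 779.7 CPM in WT and 942.2, 658.0, 644.8 and 746.3 CPM in ERRα3SA muscles, with overlap and a log2 fold change of -0.17 ± 0.09 (SE, adjusted p = 0.293), or -0.05 (adjusted p = 1.00, no DEG) with all 8 libraries. Slc2a4 (GLUT4), the most abundant gene of the insulin list per length, overlapped at 480.2, 459.6, 487.0 and 444.7 CPM in WT and 153.0, 532.2, 507.2 and 465.9 CPM in ERRα3SA muscles (log2 fold change 0.11 ± 0.07 (SE, adjusted p = 0.384), with -0.17 (adjusted p = 1.00, no DEG) in all 8 libraries). Of 43 genes of insulin signalling and glucose uptake, 5 rose and 4 fell, with 3 and 4 after the correction, 1 and 2 with all 8 libraries, and 4 and 0 in the 6-library fit. Under upper-quartile scaling the split was 5 and 5, and 0 and 4 with all 8 libraries.

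Genes of slow fibres had 2 rises and 4 falls among 17 (median -0.09), 1 and 5 with the correction, 2 and 8 in the 6-library fit, and 1 and 1 with all 8 libraries, where the median was 0.11. The mean log2 CPM of the list relative to WT was 0.23, -0.39, -0.05 and 0.15 in the ERRα3SA muscles. Myh7, the myosin of slow fibres, stood at 900.6, 930.7, 916.6 and 984.3 CPM in WT and 1729, 511.7, 675.6 and 802.2 CPM in ERRα3SA muscles. Tpm3, a slow tropomyosin, was at 522.8, 616.7, 555.8 and 653.5 CPM in WT and 1351, 301.3, 343.9 and 478.9 CPM in ERRα3SA muscles, and Tnnc1, the slow troponin C, at 194.0, 213.9, 172.7 and 212.4 CPM in WT and 219.2, 109.3, 131.5 and 159.2 CPM in ERRα3SA muscles. ERRα3SA 2 to 4 lay below the WT muscles in the 3 genes and ERRα3SA 1 above them. They fell, with log2 fold changes of -0.48 ± 0.14, -0.64 ± 0.16 and -0.56 ± 0.13 (SE, adjusted p = 0.0848, 0.0618 and 0.0543), while all 8 libraries gave -0.01, 0.08 and -0.36 (adjusted p = 1.00, 1.00 and 1.00, no DEGs). The 2 genes that rose were Ankrd2, a repeat protein of stretched fibres, at 115.0, 127.2, 130.6 and 151.1 CPM in WT and 211.1, 145.4, 196.1 and 281.5 CPM in ERRα3SA muscles, and Csrp3, the muscle LIM protein, at 70.5, 72.6, 91.3 and 83.5 CPM in WT and 70.8, 84.7, 137.1 and 308.9 CPM in ERRα3SA muscles, both highest in ERRα3SA 4. Their rises were 0.68 ± 0.20 and 1.17 ± 0.36 (SE, adjusted p = 0.0883 and 0.101), and all 8 libraries gave 0.67 and 0.92 (adjusted p = 0.857 and 1.00, DEG Ankrd2). Without ERRα3SA 4 as well they had 0.39 and 0.48 (adjusted p = 0.03803 and 0.0442, each a DEG), and the correction left Ankrd2 at 0.41 (adjusted p = 0.344, no DEG). In the 8-library fit Csrp3 was a DEG without ERRα3SA 2 (log2 fold change 1.12), but had 0.30 without ERRα3SA 4. Soleus is rich in slow fibres, and the share of it in each library is not recorded. Acta1 was at 28331, 30224, 29789 and 30411 CPM in WT and 26649, 28468, 29874 and 24454 CPM in ERRα3SA muscles, with overlap (log2 fold change -0.10 ± 0.10 (SE, adjusted p = 0.592)), with -0.30 (adjusted p = 0.2195, a DEG) after the correction and -0.12 (adjusted p = 1.00, no DEG) in all 8 libraries.

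Myelin and Schwann cell genes fell with and without ERRα3SA 1. All 7 markers of the list were DEGs lower in ERRα3SA muscle with 8, 7 and 6 libraries and after the correction, with median log2 fold changes of -0.82, -0.75, -0.92 and -0.81. Their summed level was 463.5, 341.4, 350.1 and 318.6 CPM in WT and 150.5, 169.2, 212.6 and 236.9 CPM in ERRα3SA muscles. Pmp22, a membrane protein of peripheral myelin, was at 141.5, 107.9, 115.0 and 96.5 CPM in WT and 67.6, 53.8, 64.5 and 74.1 CPM in ERRα3SA muscles, and Mbp, myelin basic protein, at 86.02, 61.01, 66.6 and 62.5 CPM in WT and 19.7, 32.1, 45.1 and 47.6 CPM in ERRα3SA muscles. Every ERRα3SA muscle lay below every WT muscle in the 7 genes, as in 2.08% of all genes tested with 8 libraries. Of the 639 DEGs of that fit, 362 did not overlap (56.7%). The log2 fold changes of Pmp22 and Mbp were -0.84 ± 0.15 and -0.72 ± 0.16 (SE, adjusted p = 0.02499 and 0.0481) without ERRα3SA 1 and -0.83 and -0.93 (adjusted p = 0.301 and 0.773, each a DEG) with all 8 libraries.

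The less abundant Prx, Ncmap and S100b belong to the list already counted above and were picked after their values were seen. Prx, the periaxin of Schwann cells, was at 30.96, 22.02, 21.2 and 20.7 CPM in WT and 7.22, 13.6, 14.9 and 17.8 CPM in ERRα3SA muscles. Ncmap, a myelin-associated protein, was at 4.15, 2.96, 3.24 and 2.32 CPM in WT and 2.15, 1.35, 1.98 and 1.804 CPM in ERRα3SA muscles, and S100b, a calcium-binding protein of glia, at 3.78, 3.54, 2.53 and 3.44 CPM in WT and 1.91, 1.84, 2.08 and 1.94 CPM in ERRα3SA muscles. Their log2 fold changes were -0.61 ± 0.16, -0.88 ± 0.25 and -0.75 ± 0.19 (SE, adjusted p = 0.0729, 0.0824 and 0.0688) without ERRα3SA 1. With it they were -0.82, -0.80 and -0.77 (adjusted p = 0.939, 0.903 and 0.725, each a DEG). Fewer Schwann cells in the piece of muscle and less of this RNA per cell cannot be told apart in whole tissue, here and for every other cell type.

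**Figure D4:**
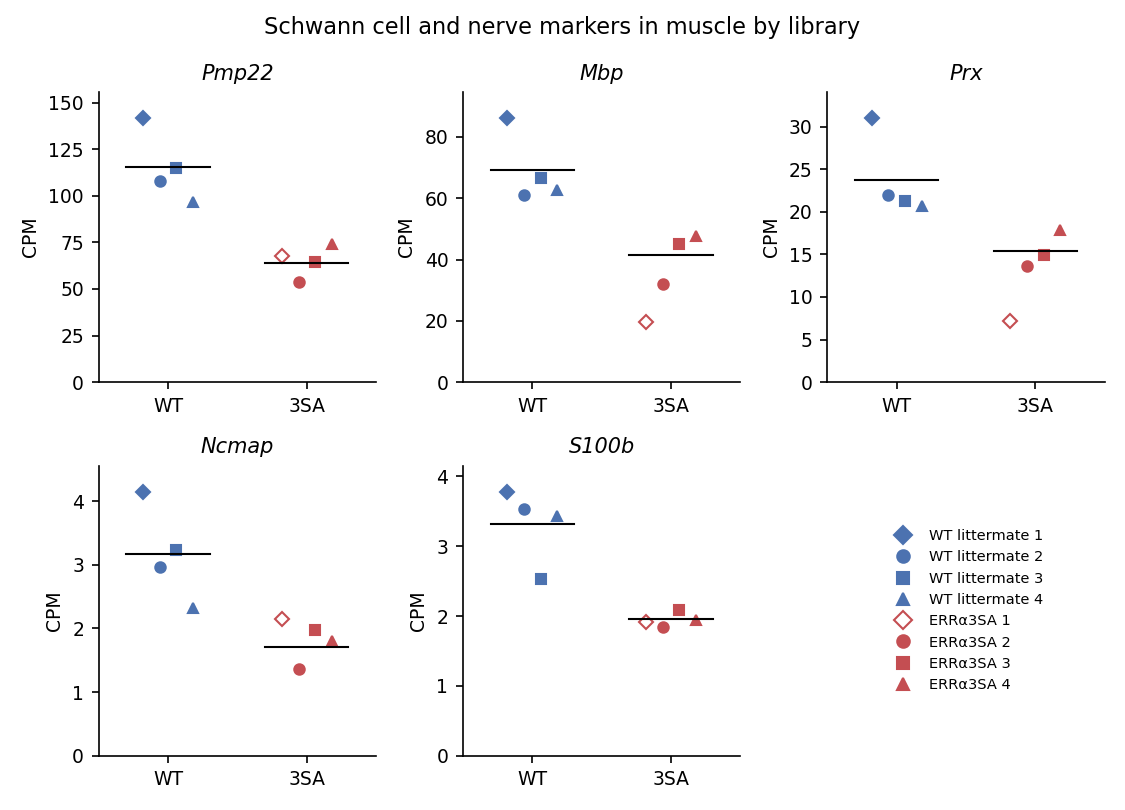
CPM of 5 Schwann cell and nerve markers in each muscle library. Bars mark the mean of WT 1 to 4 and of ERRα3SA 2 to 4.

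Outside the list, 4 genes of the largest or clearest falls are also known from myelinating Schwann cells. Ugt8a, which makes the galactolipids of myelin, was at 6.57, 4.73, 4.78 and 4.19 CPM in WT and 1.73, 1.702, 2.19 and 2.36 CPM in ERRα3SA muscles. Mal, a myelin proteolipid, was at 13.9, 10.5, 9.04 and 9.83 CPM in WT and 6.57, 5.35, 5.37 and 6.04 CPM in ERRα3SA muscles, and Drp2, a partner of periaxin, at 21.3, 17, 19.6 and 16.4 CPM in WT and 8.84, 7.64, 10.1 and 11.9 CPM in ERRα3SA muscles, all without overlap. Gldn (gliomedin), which gathers sodium channels at nodes, was at 3.19, 2.02, 2.41 and 2.68 CPM in WT and 3.702, 0.868, 1.06 and 1.46 CPM in ERRα3SA muscles, where ERRα3SA 1 lay above the WT muscles. The log2 fold changes were -1.27 ± 0.21, -0.95 ± 0.16, -0.90 ± 0.16 and -1.18 ± 0.26 (SE, adjusted p = 0.0195, 0.0216, 0.0268 and 0.04703) without ERRα3SA 1. With that library they were -1.34, -0.90, -0.95 and -0.58 (adjusted p = 0.188, 0.318, 0.293 and 1.00, DEGs Ugt8a, Mal and Drp2).

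Synthesis of fatty acids and sterols had 7 falls and 0 rises among 19 genes (median -0.30), 7 and 0 with the correction, 4 and 0 with all 8 libraries (6 and 0 under upper-quartile scaling), and 13 and 0 in the 6-library fit. Scd2, the stearoyl-CoA desaturase common in nerve, was at 94.7, 83.9, 99.6 and 86.1 CPM in WT and 40.96, 44.2, 58.9 and 59.5 CPM in ERRα3SA muscles, without overlap. Acly, which splits citrate into acetyl-CoA, was at 37.3, 35.7, 39.99 and 37.7 CPM in WT and 26.7, 25.6, 35.5 and 26.2 CPM in ERRα3SA muscles, also without overlap, and Elovl6, an elongase, at 4.695, 5.93, 5.57 and 4.51 CPM in WT and 5.25, 2.43, 3.69 and 3.82 CPM in ERRα3SA muscles. They fell, with log2 fold changes of -0.74 ± 0.12, -0.37 ± 0.11 and -0.63 ± 0.20 (SE, adjusted p = 0.0172, 0.106 and 0.106) and, with all 8 libraries, -0.84, -0.40 and -0.45 (adjusted p = 0.293, 0.966 and 1.00, DEGs Scd2 and Acly). Scd1, the most abundant of the list, was at 512.5, 509.6, 347.7 and 370.6 CPM in WT and 534.8, 286.1, 360.8 and 45.9 CPM in ERRα3SA muscles, lowest in ERRα3SA 4. It had a log2 fold change of -0.91 ± 0.53 (SE, adjusted p = 0.325), but was a DEG without ERRα3SA 3 or ERRα3SA 4 (log2 fold change -1.39 to -0.43), and all 8 libraries gave -0.50 (adjusted p = 1.00, no DEG).

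White adipocyte markers had 2 falls and 0 rises among 9 (median -0.21), 1 and 0 with all 8 libraries, and 2 and 1 with the correction and in the 6-library fit. Their mean log2 CPM relative to WT was -0.08, -0.05, -0.02 and -1.06 in the ERRα3SA muscles, where that of the lipid synthesis list was -0.20, -0.42, -0.31 and -0.44. Summed, the markers were at 2976, 2724, 3415 and 2950.1 CPM in WT and 2865, 2197, 2403 and 958.7 CPM in ERRα3SA muscles, with ERRα3SA 4 far below the rest, and most of this sum was Car3. Retn, the resistin of fat cells, was at 5.36, 6.71, 6.36 and 6.27 CPM in WT and 2.57, 3.13, 3.28 and 1.63 CPM in ERRα3SA muscles, without overlap. It fell by 1.197 ± 0.23 (adjusted p = 0.0317). All 8 libraries gave -1.22 (adjusted p = 0.318, a DEG). Car3, a carbonic anhydrase of fat and slow fibres and the most abundant of these markers, was at 2703, 2475, 3223 and 2783 CPM in WT and 2600.3, 1953, 2182 and 770.9 CPM in ERRα3SA muscles. It fell by 0.77 ± 0.29 (adjusted p = 0.162), but was no DEG without WT 3 or WT 4 (log2 fold change -0.77 to -0.69), and all 8 libraries gave -0.58 (adjusted p = 1.00, no DEG). Without ERRα3SA 4, Car3 had -0.43 in the 7-library fit and -0.31 in the 8-library fit. Whether fat content accounts for the lipid synthesis genes was not tested.

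Interferon-stimulated genes had 11 rises and 1 fall among 42, 12 and 2 with the correction, 6 and 2 of 40 with all 8 libraries, and 36 and 0 of 45 in liver. All 13339 genes tested in liver had 333 higher and 318 lower DEGs. Without ERRα3SA 1 and 4 the interferon-stimulated genes had 6 rises and 3 falls. Upper-quartile scaling gave 10 and 3 in the 7-library fit, and 4 and 2 with all 8 libraries. The mean log2 CPM of this list relative to WT was 0.16, 0.34, -0.02 and 0.50 in the ERRα3SA muscles. That of macrophage markers, described below, was -0.12, -0.19, -0.12 and 1.89, and a link between these lists was not tested. Rsad2 (viperin, an antiviral enzyme) was at 2.64, 2.96, 3.39 and 3.16 CPM in WT and 10.4, 6.81, 4.55 and 5.65 CPM in ERRα3SA muscles, without overlap. It rose by 0.91 ± 0.18 (SE, adjusted p = 0.0327) and by 1.17 (adjusted p = 0.524, a DEG) with all 8 libraries. Irf7, the factor that amplifies interferon production, was at 3.85, 1.73, 3.197 and 2.72 CPM in WT and 8.36, 9.17, 3.66 and 7.22 CPM in ERRα3SA muscles, with overlap, and rose by 1.22 ± 0.33 (SE, adjusted p = 0.0779) and by 1.30 (adjusted p = 0.725, a DEG) with all 8. Ifi27, the most abundant, was at 20.1, 17.8, 16.7 and 15.7 CPM in WT and 5.91, 23.8, 25.5 and 25.2 CPM in ERRα3SA muscles, with ERRα3SA 1 lowest, and rose by 0.51 ± 0.10 (SE, adjusted p = 0.0313), against 0.20 (adjusted p = 1.00, no DEG) with all 8 libraries. In liver the log2 fold changes of these 3 were 0.85, 1.23 and 1.07 (adjusted p = 0.639, 0.629 and 0.629, each a DEG).

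Psmb8, a subunit of the immunoproteasome, was at 2.82, 1.85, 1.58 and 1.598 CPM in WT and 1.25, 4.06, 3.896 and 5.204 CPM in ERRα3SA muscles, again with ERRα3SA 1 lowest. It rose by 1.16 ± 0.24 (SE, adjusted p = 0.0395), and by 0.89 (adjusted p = 1.00, a DEG) with all 8 libraries, but there was no DEG without ERRα3SA 2, ERRα3SA 3, ERRα3SA 4, WT 2, WT 3 or WT 4 (log2 fold change 0.67 to 0.86). Gbp6, a guanylate-binding protein, moved the other way at 5.796, 9.303, 6.71 and 7.83 CPM in WT and 5.61, 4.59, 3.35 and 3.75 CPM in ERRα3SA muscles, without overlap. It fell by 0.92 ± 0.19 (adjusted p = 0.0395). The 8-library fit gave -0.78 (adjusted p = 0.786, a DEG), and liver 0.96 (adjusted p = 0.493, a DEG).

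ERRα3SA 4 alone was high in macrophage and neutrophil markers. Macrophage markers summed to 458.3 CPM in it and to 107.6 to 151.3 CPM in the other 7, and neutrophil markers to 19.5 against 0.3301 to 3.09 CPM, although 2 neutrophil markers (Ly6g and Mpo) were at 0 in all 8. T cell markers (1.04 CPM against 0.903 to 2.16) and B cell markers (44.2 against 32.3 to 92.3 CPM) were not high in it. Lyz2, the lysozyme of macrophages and the most abundant marker, was at 53.7, 56.8, 59.3 and 66.2 CPM in WT and 45.3, 42.7, 41.7 and 238.9 CPM in ERRα3SA muscles, with a 7-library log2 fold change of 0.89 ± 0.54 (SE, adjusted p = 0.353). It was a DEG without ERRα3SA 2 or ERRα3SA 3 (log2 fold change 1.26 to 1.27) and reversed without ERRα3SA 4 (log2 fold change -0.48). The 8-library value was 0.65 (adjusted p = 1.00, no DEG), which was reversed without ERRα3SA 4 (log2 fold change -0.44). Cd68, of macrophage lysosomes, was at 2.46, 2.72, 2.61 and 2.64 CPM in WT and 2.81, 1.81, 2.43 and 23.3 CPM in ERRα3SA muscles and Csf3r, the G-CSF receptor of neutrophils, at 0.183, 0.617, 0.316 and 0.479 CPM in WT and 0.537, 0.382, 0.239 and 9.54 CPM in ERRα3SA muscles. Cd68 rose by 1.84 ± 0.77 (SE, adjusted p = 0.191), or had 1.66 (adjusted p = 0.311, no DEG) with the correction, but was no DEG without WT 1, WT 2, WT 3 or WT 4 (log2 fold change 1.81 to 1.85) and reversed without ERRα3SA 4 (log2 fold change -0.29). With all 8 libraries it had 1.55 (adjusted p = 1.00, no DEG) and was a DEG without ERRα3SA 2 or ERRα3SA 3 (log2 fold change 1.85 to 1.88) and reversed without ERRα3SA 4 (log2 fold change -0.16). Csf3r rose by 3.11 ± 1.14 (SE, adjusted p = 0.151) but was no DEG without WT 1 or WT 3 (log2 fold change 2.86 to 3.00) and reversed without ERRα3SA 4 (log2 fold change -0.34). With all 8 it had 2.76 (adjusted p = 1.00, a DEG) and was no DEG without WT 1, WT 2, WT 3 or WT 4 (log2 fold change 2.52 to 3.05) and reversed without ERRα3SA 4 (log2 fold change -0.08).

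Some genes of stress and injury were also highest in ERRα3SA 4. The heat shock list had 6 rises and 0 falls among 20, 3 and 0 with all 8 libraries, and 4 and 2 in the 6-library fit. Ankrd1, a repeat protein induced in stretched or injured muscle, was at 8.11, 7.86, 7.698 and 9.95 CPM in WT and 15.8, 6.43, 8.24 and 348.7 CPM in ERRα3SA muscles. Hspa1b, the inducible HSP70, was at 6.16, 6.34, 5.45 and 3.88 CPM in WT and 5.25, 6.53, 8.78 and 164.3 CPM in ERRα3SA muscles, and Timp1, an inhibitor of matrix proteases, at 0.8804, 0.617, 0.474 and 0.399 CPM in WT and 0.179, 0.556, 0.718 and 37.8 CPM in ERRα3SA muscles. Their 7-library rises of 3.88 ± 1.1998, 3.48 ± 1.00 and 4.46 ± 1.35 (SE, adjusted p = 0.104, 0.0875 and 0.0996) stood against log2 fold changes without ERRα3SA 4 of -0.19, 0.49 and 0.10 (adjusted p = 0.441, 0.111 and 0.915, DEG Hspa1b). All 8 libraries gave 3.50, 3.08 and 4.04 (adjusted p = 1.00, 1.00 and 1.00, each a DEG). In that fit Ankrd1 was no DEG without ERRα3SA 4 (log2 fold change 0.26), Hspa1b was no DEG without ERRα3SA 4 or WT 4 (log2 fold change 0.34 to 2.95), and Timp1 was no DEG without WT 2, WT 3 or WT 4 (log2 fold change 3.89 to 4.07) and reversed without ERRα3SA 4 (log2 fold change -0.22).

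**Figure D5:**
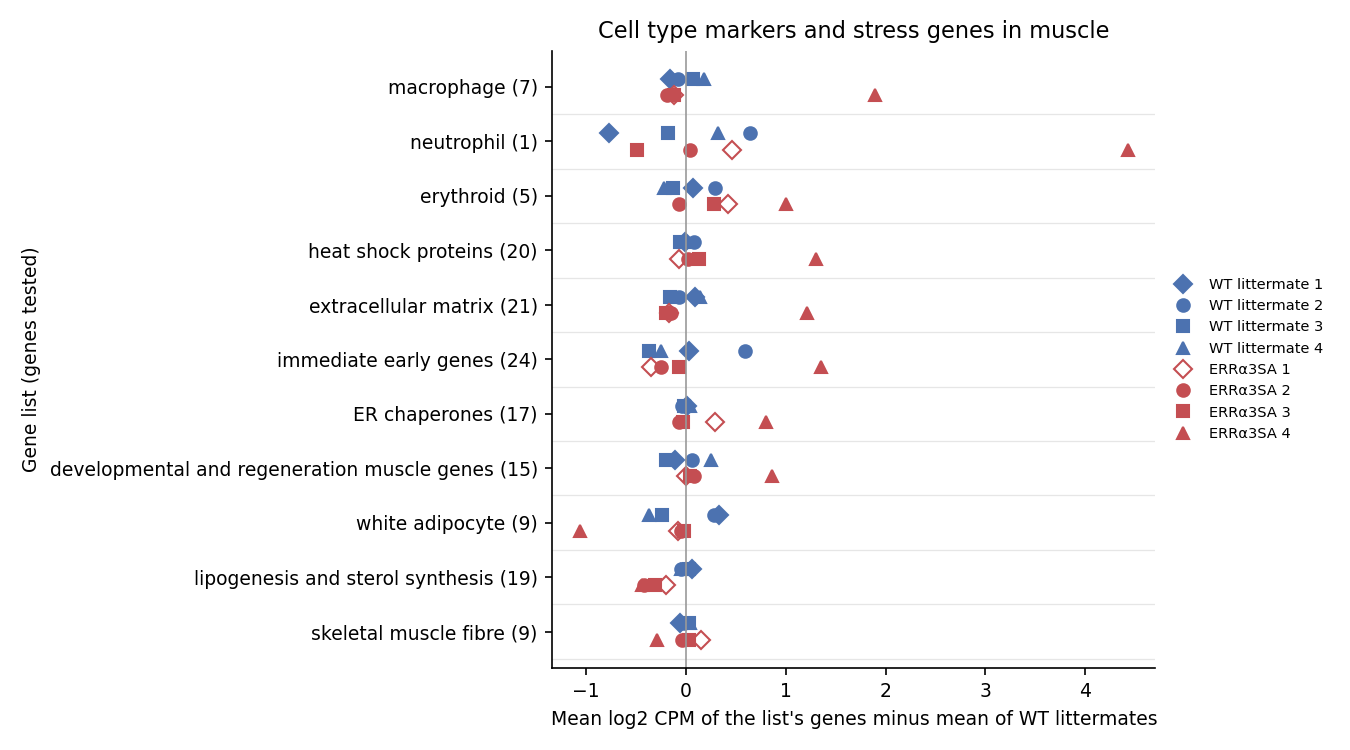
Mean log2 CPM of marker and stress gene lists in each library, relative to the mean of the WT muscles. ERRα3SA 4 is the filled red triangle.

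The largest rise of named genes at adjusted p under 0.05 was that of Mapkapk5, a protein kinase, at 2.46, 1.44, 1.26 and 0.959 CPM in WT and 0.239, 6.496, 7.76 and 5.83 CPM in ERRα3SA muscles, by 2.13 ± 0.28 (SE, adjusted p = 0.00865). Because 56.5% of its exon bases overlap those of Adam1a, its count cannot be assigned with certainty. All 8 libraries gave 1.74 (adjusted p = 1.00, a DEG), but it was no DEG without ERRα3SA 2, ERRα3SA 3, ERRα3SA 4, WT 2, WT 3 or WT 4 (log2 fold change 1.47 to 1.71). Tmem37, a membrane protein of calcium channels, was at 11.8, 10.4, 9.79 and 8.67 CPM in WT and 3.52, 21.8, 23.5 and 23.2 CPM in ERRα3SA muscles, and Mien1, a small membrane-anchored protein, at 1.87, 2.099, 1.58 and 2.44 CPM in WT and 1.79, 4.31, 4.99 and 4.58 CPM in ERRα3SA muscles. Crip1, a LIM protein, was at 13.8, 8.32, 9.28 and 9.55 CPM in WT and 7.16, 19.6, 16.9 and 32.02 CPM in ERRα3SA muscles, highest in ERRα3SA 4. ERRα3SA 1 lay lowest in Tmem37 and Crip1 and among the WT muscles in Mien1. The rises of the 3 were 1.18 ± 0.11, 1.22 ± 0.18 and 1.17 ± 0.24 (SE, adjusted p = 0.00238, 0.0143 and 0.0396) and 0.83, 0.98 and 0.89 (adjusted p = 1.00, 0.939 and 1.00, DEGs Mien1 and Crip1) with all 8 libraries. There Crip1 was no DEG without ERRα3SA 2, ERRα3SA 3, ERRα3SA 4, WT 2, WT 3 or WT 4 (log2 fold change 0.52 to 0.95).

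Among the largest falls were 2 genes of secreted matrix proteins. Col6a5, a chain of collagen VI, was at 3.26, 2.68, 1.74 and 2.72 CPM in WT and 1.37, 1.04, 1.06 and 0.659 CPM in ERRα3SA muscles, and Itih2, which binds hyaluronan, at 1.94, 3.29, 2.53 and 2.28 CPM in WT and 0.955, 0.799, 1.06 and 1.28 CPM in ERRα3SA muscles, both without overlap. They fell, with log2 fold changes of -1.49 ± 0.29 and -1.25 ± 0.27 (SE, adjusted p = 0.0319 and 0.0435) and -1.34 and -1.28 (adjusted p = 0.524 and 0.443, each a DEG) with all 8 libraries. Omd (osteomodulin), a small proteoglycan, was at 3.78, 3.54, 3 and 4.11 CPM in WT and 8.12, 1.74, 1.67 and 1.56 CPM in ERRα3SA muscles, and Cdo1, which oxidizes cysteine, at 12.5, 11.4, 11.8 and 9.75 CPM in WT and 12.4, 6.77, 7.86 and 4.34 CPM in ERRα3SA muscles. ERRα3SA 1 lay above the WT muscles in the first and among them in the second, and the log2 fold changes were -1.11 ± 0.18 and -0.84 ± 0.19 (SE, adjusted p = 0.0186 and 0.04698) without it and -0.18 and -0.55 (adjusted p = 1.00 and 1.00, no DEGs) with it.

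Muscle and liver were compared by the test of the tissue by genotype interaction. The labels do not say whether both tissues came from the same mice, and the test took all libraries as independent. With all 16 libraries, edgeR called 0 of 15688 genes at adjusted p under 0.05 (881 at unadjusted p under 0.05), and DESeq2 called 25. Without muscle ERRα3SA 1, 369 of 16019 genes passed (2.30%), and DESeq2 called 1132. In liver alone, 333 DEGs were higher and 318 lower among 13339 genes, with 0 at adjusted p under 0.05 in edgeR and 996 at unadjusted p under 0.05. Esrra differed between the tissues (interaction adjusted p = 0.0418). So did Ndufa1, Tomm7, Mrpl12, Rpl39 and Psmb5, with liver log2 fold changes of -0.26, -0.31, -0.21, -0.24 and -0.20 (interaction adjusted p = 0.00961, 0.0361, 0.0114, 0.0158 and 0.00884). Pmp22 and Gbp6, lower in ERRα3SA muscle, also differed between the tissues (liver 0.14 and 0.96, interaction adjusted p = 0.03198 and 0.01301), while for Rsad2 and Irf7 the interaction adjusted p was 1.00. No difference was called for Mbp and Pdk4, with liver log2 fold changes of -0.59 and 0.87 (adjusted p = 0.706 and 0.639, DEG Pdk4) and interaction adjusted p of 0.839 and 0.965.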

How the data were processed

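RNA of 8 mouse muscles was sequenced in paired-end libraries. The authors aligned reads with STAR 2.5 to mm10 and deposited raw counts per gene for 54532 genes. Muscle libraries held 22241960 to 28835765 counts. Genes passing filterByExpr were tested with edgeR 4.0.16 (TMM, quasi-likelihood test, Benjamini-Hochberg adjustment) in R 4.3.3, with all 8 libraries, without ERRα3SA 1, and without ERRα3SA 1 and 4. DESeq2 1.42.0 and limma 3.58.1 (voom) were run beside it. The tests were also run on simulated counts. These had no GC or length slope and no library set apart, so that run cannot rank the tests for these data. Tables were made with Python 3.11.15, pandas 2.3.3 and numpy 2.4.6. CPM are scaled by TMM, and CPM per kb are per exon length. The GC and length correction used per-library offsets from loess fits (span 0.3).

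Named genes were set by a rule: Esrra and 10 genes the study names for glucose and fat use; the 12 largest rises and falls at adjusted p under 0.05 without ERRα3SA 1, not overlapping, with mean CPM of at least 1; the 6 smallest p per direction with all 8 libraries; and, in each of 36 pathway and 18 marker lists, the most abundant member and up to 3 DEGs per direction. Some genes that the rule sets are not reported here. Lists and members were chosen with earlier results of these data known. Mbp, Prx, Ncmap, S100b and Irf7 lie outside the rule and were chosen after their values were seen. Alternatives were other tests, scalings, filters, a replicate block, the correction, and leaving out each library. Library shares were compared by an exact permutation test.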

Additional observations from a re-analysis of the deposited data

Results flagged for a closer look

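Some single libraries lay far from the other 3 of their genotype. Over 104 named genes in 208 groups of 4 muscles, 37 values did so by a Dixon gap test, which chance gives in about 1 of 20 groups. Most of these genes were named for changes in the fit without ERRα3SA 1, so their choice favours a gap at that library, and the count is a description. Of the 37 values, 28 were in ERRα3SA 1, 1 in ERRα3SA 3, 4 in ERRα3SA 4, 2 in WT 1 and 2 in WT 3. In ERRα3SA 1 the values, in CPM, were Fabp3 453.5, Lpl 2363, Mapkapk5 0.239, Atp5k 16.5, Rpl22l1 3.22, Mien1 1.79, Tmem37 3.52, mt-Atp8 25.9, Omd 8.12, Ndufa3 36.9, Uqcr11 29.7, Cox8a 8.06, Atp5g1 148.0, Atp5g3 151.9, mt-Co1 119094, mt-Nd3 32.3, Acadvl 53.1, Tomm40l 1.61, Timm13 9.08, Pfkfb2 3.46, Eno3 3965, Slc2a4 153.0, Ifi27 5.91, Mrpl12 24.8, Mrpl14 29.1, Mrps30 24.2, Rplp0 507.0 and Psmb5 24.5. ERRα3SA 3 stood apart for Acly 35.5 and ERRα3SA 4 for Ndufs6 99.5, Hspa1b 164.3, Lyz2 238.9 and Cd68 23.3. WT 1 stood apart for mt-Co1 36248 and Prx 30.96 and WT 3 for Ndufa3 49.8 and Mrpl12 27.6. ERRα3SA 1 was also apart in its 19.3% of counts on genes of the mitochondrial genome, its 0.653% on mitochondrial rRNA and its 16984 genes with a count. The mitochondrial genome share was 1 reason for setting this library aside, so its listing here restates that choice.

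The genotype effect differed between muscle and liver for 34 named genes, by edgeR's interaction test without muscle ERRα3SA 1, which called 369 of 16019 genes (2.30%). Most of them were named for their change in muscle in the same libraries, which favours such a difference. The muscle effect minus the liver effect, on the log2 scale, was above 0 for Esrra 0.81, Mapkapk5 2.55, Atp5k 1.76, Rpl22l1 2.16, Etfb 1.59, Mien1 1.41, Tmem37 1.12, Ndufa2 1.503, Ndufa1 1.27, Rpl39 0.98, Rpl36 0.98, Ndufs6 1.12, Ndufb3 0.95, Rpl11 0.91, Ndufa3 1.11, Uqcrq 0.88, Cox8a 0.87, Atp5g1 0.78, Tomm7 1.25, Tomm40l 1.33, Timm13 1.11, Hspe1 0.65, Mrpl12 1.05, Mrpl14 1.35, Mrpl51 0.56, Rps29 1.18, Psmb5 0.75 and Psmb7 0.61. It was below 0 for mt-Atp8 -2.10, Itih2 -1.24, Gbp6 -1.91, Pmp22 -1.02, Tpm3 -0.74 and Mrps30 -0.69.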

How the results depend on the processing

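Alternatives changed 1 choice at a time except where 2 are named, and where a result moved, the cause was not tested. The 639 DEGs of the 8-library fit became 1013 with the livers in the fit, 1071 without a filter, 2799 with voom and 378 to 2506 when 1 library was left out. The 0 genes at adjusted p under 0.05 became 56 with DESeq2, 2 with the livers in the fit, 1820 with voom and 0 to 464 when 1 library was left out. In the 7-library fit, 2506 DEGs became 1634 with the correction and 1896 to 2941 when 1 more library was left out. The 464 genes at adjusted p under 0.05 became 1286 with DESeq2, 163 with the correction, 892 with the correction and without ERRα3SA 4, 2158 with voom, and 71 to 1505 when 1 more library was left out. The interaction called 25 genes with DESeq2, 369 without muscle ERRα3SA 1 and 1132 with both. The genotype difference in mitochondrial genome share was -1.08 to 2.31 points when 1 library was left out. The correction without ERRα3SA 4 and the DESeq2 interaction without ERRα3SA 1 were chosen after seeing the data.

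Log2 fold changes of named genes mostly kept their direction and their call. With all libraries of the fit, 1005 values did so in the 8-library fit, against 79 that became calls, 42 that lost the call and 14 that turned sign. In the 7-library fit these were 1069, 13, 52 and 6. With 1 library left out they were 697, 46, 64 and 25 in the 8-library fit and 673, 11, 40 and 4 in the 7-library fit. The correction without ERRα3SA 4, which changes 2 choices, gave 86, 4, 9 and 5. Signs turned in the 8-library fit for mt-Atp8 0.00322 and Myh7 0.00811 with DESeq2; mt-Co1 -0.17, Perm1 0.14, Slc2a4 0.14, Tpm3 -0.85, Lyz2 -0.37, Cd68 -0.19 and Csf3r -0.0528 with voom with quality weights; Myh7 0.008 with RLE factors; Myh7 0.23 with the correction. In the 7-library fit they turned for Slc2a4 -0.0228 with the correction; Ankrd1 -0.20, Timp1 -0.13, Lyz2 -0.56, Cd68 -0.47 and Csf3r -0.45 with the correction without ERRα3SA 4; Lyz2 -0.37, Cd68 -0.19 and Csf3r -0.0833 with voom with quality weights. Over the libraries left out 1 at a time, genes whose sign turned ranged in the 8-library fit as Ugp2 -0.17 to 0.0225, mt-Atp8 -1.38 to 0.27, Omd -1.11 to 0.0503, mt-Co1 -0.23 to 0.70, Perm1 -0.12 to 0.13, Ppargc1a -0.36 to 0.0216, Slc2a4 -0.31 to 0.11, Tpm3 -0.64 to 0.31, Myh7 -0.48 to 0.20, Timp1 -0.22 to 4.46, Lyz2 -0.44 to 0.89, Cd68 -0.16 to 1.88 and Csf3r -0.0822 to 3.15, and in the 7-library fit as Ankrd1 -0.19 to 4.42, Lyz2 -0.48 to 1.27, Cd68 -0.29 to 2.31 and Csf3r -0.34 to 3.65.

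Replicate numbers were also used as a block, although same-numbered muscles did not pair. Over genes, deviations from the group mean correlated between same-numbered WT and ERRα3SA muscles with r of -0.218, 0.0284, -0.0695 and 0.0308, and the best matches of WT 1 to 4 were ERRα3SA 2, 3, 1 and 1. With the block, 334 DEGs were called with 8 libraries, and in the 7-library fit 33 genes at adjusted p under 0.05. With the block and the correction, the 7-library fit gave 1541 DEGs and 14 genes at adjusted p under 0.05. Signs turned for Tpm3 in the 8-library fit -0.23 with the block alone, Tpm3 in the 8-library fit -0.22 with the correction as well, Ifi27 in the 8-library fit -0.00698 with the correction as well, Perm1 in the 7-library fit -0.00756 with the correction as well and Slc2a4 in the 7-library fit -0.0282 with the correction as well.

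There are 4 muscles of each genotype, and the fits without ERRα3SA 1 and 4 hold 3 or 2 ERRα3SA muscles. The dissection of each is not recorded. RNA levels say nothing of ERRα protein, of its binding or of mitochondrial function. In genes with few counts, 1 library can carry a call.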
